A study of Mus musculus with 69 samples.

Results

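The expression of 43 cell cycle genes was examined in cultured mouse microglia, the resident macrophages of the brain, that were exposed to myelin or to the solvent DMSO and that carried or lacked Tlr7, the endosomal receptor for single-stranded RNA. The genes were chosen by symbol: 18 act in DNA replication (the minichromosome maintenance genes Mcm2 to Mcm7, Pcna, Cdc6, Cdt1, Gins2, Rrm1, Rrm2, Tyms, Uhrf1, the E cyclins Ccne1 and Ccne2, and the E2F factors E2f1 and E2f8) and 25 act mainly in mitosis. All 43 were found among the 54532 genes of the count table, and all were among the 14468 genes tested. The 24 libraries came from primary microglia of mouse pups of postnatal day 1 to 3. They formed 8 groups of 3: male or female, WT or TLR7:-/- (KO below), with DMSO or with myelin. Each myelin group was compared with the DMSO group of the same sex and genotype. The labels give neither the myelin dose nor the exposure time, nor whether the 3 libraries of a group were separate cultures or animals. P-values therefore measure only the spread between these libraries, which may be technical.

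A dividing cell copies its DNA in S phase and separates the copies in mitosis. Before S phase, Cdc6 and Cdt1 load the Mcm2 to Mcm7 ring onto origins as the core of the replicative helicase, and cyclin E with its kinase and the E2F factors drive the entry into S phase. Later, cyclin A and cyclin B with Cdk1, the Aurora and Polo kinases, the spindle checkpoint and the kinesins carry the cell through mitosis, and many of their genes are transcribed under Foxm1 late in the cycle. Microglia are long-lived cells that renew by local division under signalling through the receptor encoded by Csf1r.

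Total counts per library ranged from 15277642 to 21275491, and the members had 5 to 4607 counts per library. Expression was given as CPM, a gene's count scaled to a common library total, after TMM scaling, which removes differences in library size and composition. Genes were called where edgeR's quasi-likelihood test over all 24 libraries gave a Benjamini-Hochberg adjusted p under 0.05 across the 14468 genes. Fold changes are on the log2 scale with their standard errors (SE). Tlr7 averaged between 172 and 192 CPM in the 4 WT groups and between 1.58 and 2.27 CPM in the 4 KO groups, low in every group labelled KO. The summed level of 14 microglial markers was 5460 to 6012 CPM with DMSO and 4222 to 4487 CPM with myelin, and 1 of the 14, Siglech, was at 0 in all 6 female DMSO libraries. Siglech was near 0 in the other groups too, with means from 0.0196 to 0.0958 CPM. The 2 female KO libraries numbered 1 stood apart from their groups. Their sums of 10 choroid plexus markers were 567 CPM with DMSO and 501 CPM with myelin. The female KO libraries numbered 2 and 3 held 60.6 and 46.2 CPM with DMSO, and 43.6 and 190 CPM with myelin. The male KO libraries held 4.78 to 22.8 CPM and the WT libraries 87.4 to 244 CPM of the same markers.

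The promoters of the 2 sets of genes are described by the short words they held. RefSeq promoters of 300 bases (GRCm38.p6, 250 bases before to 50 after the start) were listed for 15 of the 18 replication members (17 promoters) and 20 of the 25 mitosis members (21 promoters). On either strand, 4 words of E2F sites were searched (TTTCGCGC, TTTGGCGC, TTTCCCGC and TTTGCCGC), together with the CCAAT word and the words TTTGAA and TTTAAA of the cell cycle genes homology region (CHR), an element of late cell cycle promoters. An E2F word was present in 7 of 17 replication promoters (41.2%) and in 1 of 21 mitosis promoters (4.76%, that of Cdk1), against 2.26% of all 32851 promoters. CCAAT and a CHR word were both present in 18 of 21 mitosis promoters (85.7%) and in 5 of 17 replication promoters (29.4%), against 10.7% of all promoters. The promoter with the most E2F words among replication members was that of Mcm6 and the promoter with the most CCAAT and CHR words among mitosis members was that of Top2a. That of Cdt1 is added because Cdt1 was the member that rose with myelin in every culture, a choice made after its values were seen. A match describes the letters and is not a site. Capitals mark the matched words on either strand. In the Mcm6 promoter 2 of the 3 E2F words lie on opposite strands and overlap.
Mcm6, chr1:128359656-128359955, minus strand: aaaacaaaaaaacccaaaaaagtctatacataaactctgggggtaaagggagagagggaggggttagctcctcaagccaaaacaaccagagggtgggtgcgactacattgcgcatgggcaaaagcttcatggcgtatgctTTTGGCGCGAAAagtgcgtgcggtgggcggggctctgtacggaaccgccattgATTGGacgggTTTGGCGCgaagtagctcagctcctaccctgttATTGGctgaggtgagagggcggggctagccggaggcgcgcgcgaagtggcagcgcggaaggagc
Top2a, chr11:99024140-99024439, minus strand: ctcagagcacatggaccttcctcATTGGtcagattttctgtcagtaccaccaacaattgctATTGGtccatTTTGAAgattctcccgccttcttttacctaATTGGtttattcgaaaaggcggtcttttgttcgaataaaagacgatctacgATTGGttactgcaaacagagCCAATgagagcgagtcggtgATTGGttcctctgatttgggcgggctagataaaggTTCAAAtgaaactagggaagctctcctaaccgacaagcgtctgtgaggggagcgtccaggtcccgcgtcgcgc
Cdt1, chr8:122567765-122568064, plus strand: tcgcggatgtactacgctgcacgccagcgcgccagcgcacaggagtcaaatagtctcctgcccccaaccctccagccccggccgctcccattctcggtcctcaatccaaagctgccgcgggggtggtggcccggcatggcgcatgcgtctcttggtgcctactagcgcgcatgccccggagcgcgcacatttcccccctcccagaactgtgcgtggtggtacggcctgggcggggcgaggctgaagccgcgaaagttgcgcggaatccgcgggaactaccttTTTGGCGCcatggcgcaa

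With myelin, nearly all mitosis genes fell in every culture, with larger median falls than those of the replication genes, a difference that was not itself tested. The summed level of the 25 mitosis members was 270 ± 1.56 CPM (SD, n = 3) in male WT microglia with DMSO and 124 ± 9.95 with myelin, and 242 ± 6.18 and 109 ± 8.24 in female WT microglia. In KO microglia it was 212 ± 5.84 with DMSO and 125 ± 5.66 with myelin in males, and 188 ± 3.13 and 100 ± 0.555 in females. The summed level of the 18 replication members was 656 ± 9.58 CPM with DMSO and 488 ± 13.5 with myelin in male WT, 649 ± 10.0 and 475 ± 7.37 in female WT, 603 ± 10.6 and 495 ± 11.5 in male KO, and 550 ± 4.19 and 455 ± 17.9 in female KO microglia. In each of the 4 cultures the DMSO and myelin libraries did not overlap in either sum. In bulk RNA, fewer dividing cells and less of these transcripts per cell cannot be told apart.

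All 25 mitosis members were called lower with myelin in male WT, female WT and female KO microglia, and 24 in male KO microglia. Their median log2 fold changes were -1.24, -1.36, -1.21 and -1.04 in the same order. Of the 18 replication members, 15 were called lower in male WT, 15 in female WT, 10 in male KO and 12 in female KO microglia, with medians of -0.46, -0.54, -0.31 and -0.37. The median over all tested genes was 0.00 in both WT cultures, -0.01 in male KO and 0.01 in female KO microglia. Myelin changed many genes: 19.4% of all tested genes were called lower and 20% higher in male WT, 21.1% and 19.3% in female WT, 20.2% and 18% in male KO, and 20.4% and 20.8% in female KO microglia. The share of mitosis members called lower was above the background in every culture. The summed level of 10 oligodendrocyte markers was also higher with myelin, at 510 to 872 CPM against 192 to 314 CPM with DMSO, and its part in these results was not tested.

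**Figure D1:**
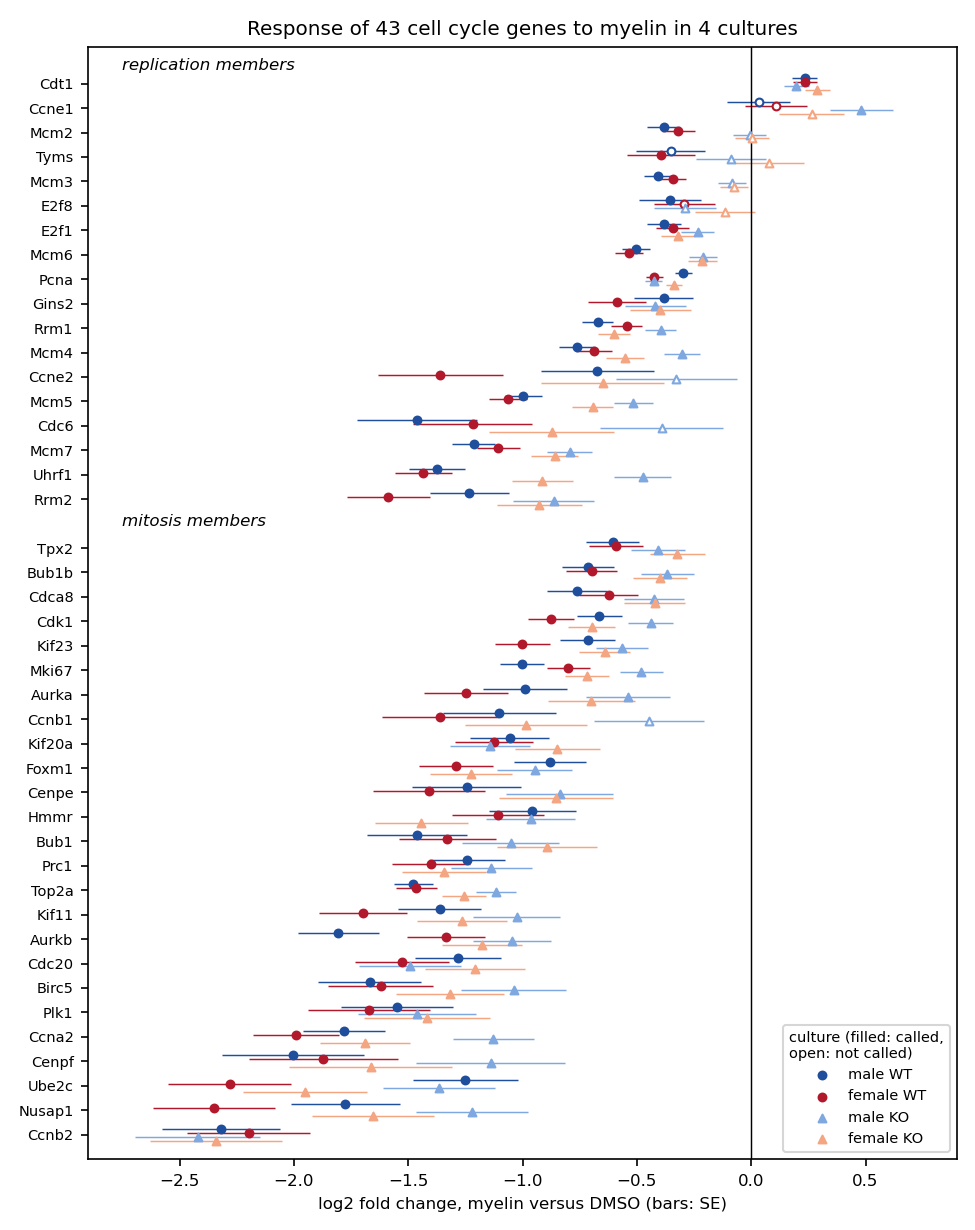
Log2 fold change with myelin (x axis, bars SE) of each member (y axis) in male and female WT (circles) and KO (triangles) microglia, filled where called by edgeR. Every mitosis member lies left of 0 in all 4 cultures, while Cdt1 lies right of 0 and Ccne1 at or right of 0.

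Among the regulators of mitotic entry, Cdk1, the kinase that starts mitosis, had 19.4, 17.6 and 20.2 CPM in the 3 male WT libraries with DMSO and 11.5, 10.9 and 13.7 with myelin. In male KO microglia the values were 16.5, 17.2 and 17.7 with DMSO and 10.6, 13.1 and 13.9 with myelin. Cdk1 in females was 18.1, 20.4 and 17.9 CPM (WT, DMSO), 10.00, 10.00 and 10.8 (WT, myelin), 16.7, 16.9 and 15.7 (KO, DMSO) and 9.31, 9.54 and 11.6 (KO, myelin). All DMSO libraries lay above all myelin libraries of the same sex. The fall was 0.66 ± 0.10 on the log2 scale in male WT, 0.88 ± 0.10 in female WT, 0.44 ± 0.10 in male KO and 0.70 ± 0.10 in female KO microglia (adjusted p from 1.32e-10 to 0.000260, edgeR). Ccnb1, which encodes the cyclin B1 partner of Cdk1, had 9.18, 7.8 and 9.03 CPM with DMSO and 4.29, 6.06 and 1.76 with myelin in male WT libraries. In male KO libraries Ccnb1 was at 6.32, 7.54 and 7.23 CPM with DMSO and 5.33, 5.12 and 5.06 CPM with myelin. Female WT libraries held 6.85, 9.87 and 8.01 CPM with DMSO and 3.76, 3.69 and 2.13 CPM with myelin, and female KO libraries 6.1, 5.13 and 5.67 CPM with DMSO and 2.73, 3.01 and 2.76 CPM with myelin. The 3 male WT libraries with myelin spread widely, and Ccnb1 was the mitosis member that did not pass the test in male KO microglia (-0.45 ± 0.24, adjusted p = 0.158), against -1.10 ± 0.25 in male WT. It passed there without a filter on low counts (adjusted p = 0.0370) and in a fit of the 2 male KO groups alone (0.0145), while its male WT call was lost in a fit of the 2 male WT groups alone (0.0908).

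The mitosis member with the largest fall in male WT microglia was Ccnb2, the cyclin B2 gene, at -2.32, -2.20, -2.42 and -2.34 in WT males, WT females, KO males and KO females (SE 0.26 to 0.29). Ccna2, the cyclin A2 gene, fell by 1.78, 1.99, 1.13 and 1.69 in the same order. Nusap1, a spindle microtubule protein, fell by 1.78 and 2.35 in WT, and Cenpf, a kinetochore protein, by 2.0 and 1.87. In both WT cultures 16 of the 25 mitosis members fell by 1 or more, against 4 of the 18 replication members (Cdc6, Mcm7, Rrm2 and Uhrf1). The smallest fall in WT was that of Tpx2, a spindle assembly factor, at -0.61 and -0.59. The Aurora kinase gene Aurkb, its partner genes Birc5 and Cdca8, the Polo kinase gene Plk1, the checkpoint genes Bub1 and Bub1b, the kinesin genes Kif11, Kif20a and Kif23, and Foxm1 were called lower in all 4 cultures, as were 24 of the 25 mitosis members in all. Cenpe, a kinetochore motor, fell by 1.24 and 1.41 in male and female WT, Prc1, which bundles the midzone of the spindle, by 1.24 and 1.40, Hmmr, a spindle-associated protein, by 0.96 and 1.11, and Ube2c, the ubiquitin-conjugating enzyme of the anaphase-promoting complex, by 1.25 and 2.28. In male KO microglia Aurka lost the call without DMSO library 1 or myelin library 1 or 2, and Cdca8 without DMSO or myelin library 3 (adjusted p from 0.0507 to 0.131). In female KO microglia Cenpe lost it without DMSO library 2, and Tpx2 without DMSO library 1 or 3 or myelin library 3 (0.0555 to 0.291). Without both female KO libraries numbered 1, Ccnb1, Bub1b and Cenpe did not pass there (0.0540 to 0.134), nor did the replication members Gins2 (0.131) and Ccne2 (0.189).

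Mki67, the gene of the proliferation marker Ki-67, had 40.2, 36.8 and 37.6 CPM with DMSO and 20.7, 20.7 and 15.9 with myelin in male WT libraries, and 28.3, 30.6 and 30.6 CPM with DMSO and 21.4, 22.5 and 20.4 CPM with myelin in male KO libraries. In females it had 37.3, 31.8 and 32.2 CPM with DMSO and 22.1, 19.2 and 16.6 CPM with myelin (WT) and 27.1, 31.1 and 27.6 CPM with DMSO and 19.9, 16.4 and 15.9 CPM with myelin (KO). DMSO and myelin libraries did not overlap, and KO libraries with DMSO lay between WT libraries with DMSO and with myelin. Mki67 fell by 1.0 ± 0.10 in male WT, 0.80 ± 0.10 in female WT, 0.48 ± 0.10 in male KO and 0.72 ± 0.10 in female KO microglia. Top2a, which encodes the topoisomerase that untangles sister chromosomes, had 35.5, 35.5 and 34.4 CPM with DMSO and 13.8, 12.2 and 11.7 with myelin in male WT libraries, and 27.4, 26.4 and 25.7 CPM with DMSO and 12.7, 12.7 and 11.4 CPM with myelin in male KO libraries. Female libraries held 27.2, 32.5 and 26.7 CPM with DMSO and 11.3, 10.4 and 9.53 CPM with myelin (WT), and 19.96, 20.1 and 18.4 CPM with DMSO and 7.5, 8.46 and 8.53 CPM with myelin (KO). The fall of Top2a was 1.48 ± 0.09, 1.46 ± 0.09, 1.12 ± 0.09 and 1.26 ± 0.09 in WT males, WT females, KO males and KO females, with adjusted p from 6.02e-22 to 1.59e-16 (edgeR). In each sex the KO libraries with DMSO were lower than the WT libraries with DMSO, and in females the KO libraries with myelin were also lower than the WT libraries with myelin.

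Among replication genes, Mcm2 to Mcm7 were called lower in both WT cultures, and their calls in KO microglia differed. Mcm2, a subunit of the helicase ring (chromosome 6, 88883474 to 88898780, GRCm38), had 42.9, 42 and 36.5 CPM with DMSO and 32.8, 30.2 and 30.1 with myelin in male WT libraries, and 33.9, 35.3 and 31.1 CPM with DMSO and 30.3, 36 and 33.4 CPM with myelin in male KO libraries. Female WT libraries held 38.2, 39.1 and 42.1 CPM with DMSO and 33.2, 32.6 and 29.9 CPM with myelin, and female KO libraries 29.5, 30.7 and 30.6 CPM with DMSO and 27.2, 30.3 and 33.6 CPM with myelin. In both sexes the WT libraries with DMSO stood above all others, and the other 3 groups overlapped. The change with myelin was -0.38 ± 0.07 in male WT and -0.32 ± 0.07 in female WT microglia (adjusted p = 1.39e-05 and 0.000194, edgeR), and -0.01 ± 0.07 and 0.00 ± 0.07 in male and female KO microglia (adjusted p = 0.959 and 0.971).
Mcm3, another ring subunit, had 52.2, 50.3 and 54.2 CPM with DMSO and 40.2, 41.8 and 36 with myelin in male WT libraries, 45.3, 43.8 and 42.3 CPM with DMSO and 43.8, 39.8 and 40.6 CPM with myelin in male KO libraries. In females the values were 52.3, 48.1 and 50.4 CPM with DMSO and 41, 40.2 and 37.4 CPM with myelin (WT), and 36.1, 40.4 and 39.7 CPM with DMSO and 36.7, 36.2 and 37.5 CPM with myelin (KO). Again the WT libraries with DMSO lay above all others. Mcm2 and Mcm3 were the 2 members called lower in both WT cultures and in neither KO culture. A difference in response between them and the other Mcm genes was not tested.

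Mcm4, Mcm5, Mcm6 and Mcm7 fell in all 4 cultures. Mcm4 was at 29.96, 28.5 and 28 CPM with DMSO and 18.3, 16.3 and 16.4 with myelin in male WT libraries, 22.2, 22.3 and 22.4 CPM with DMSO and 18.1, 17.6 and 18.5 CPM with myelin in male KO, 24.5, 26.8 and 27.9 CPM with DMSO and 14.8, 18.1 and 16.5 CPM with myelin in female WT, and 20.1, 21.4 and 18.5 CPM with DMSO and 13.4, 13.2 and 14.4 CPM with myelin in female KO libraries. Mcm5 was at 32.6, 30.8 and 29.8 CPM with DMSO and 15.2, 16.7 and 14.8 with myelin in male WT, 21.2, 22 and 21.1 CPM with DMSO and 15.7, 13.6 and 15.6 CPM with myelin in male KO, 26.5, 31.8 and 26 CPM with DMSO and 14.5, 12.8 and 13 CPM with myelin in female WT, and 18, 19.3 and 18.7 CPM with DMSO and 11.3, 11.4 and 11.9 CPM with myelin in female KO libraries. For both genes the KO libraries with DMSO lay between the WT libraries with DMSO and the libraries with myelin of the same sex, without overlap. Mcm5 fell by 1.0 ± 0.08 in male WT, 1.06 ± 0.08 in female WT, 0.52 ± 0.08 in male KO and 0.69 ± 0.09 in female KO microglia. Mcm6 was at 50.6, 58.1 and 55.8 CPM with DMSO and 40.6, 38.8 and 36.6 with myelin in male WT, 41.1, 47 and 48.6 CPM with DMSO and 39.3, 39.7 and 39.2 CPM with myelin in male KO, 58.6, 52.7 and 55.7 CPM with DMSO and 37.8, 37.1 and 40.3 CPM with myelin in female WT, and 39.1, 41.4 and 38.9 CPM with DMSO and 33.3, 32.9 and 36.8 CPM with myelin in female KO libraries. The WT libraries with DMSO lay above all others of their sex. Its falls were 0.50, 0.54, 0.21 and 0.21 in WT males, WT females, KO males and KO females, and the call in male KO was lost without DMSO library 2 or 3 of that culture (adjusted p = 0.0591 and 0.106). Gins2, a subunit of the complex that activates the helicase, was called lower in all 4 cultures (-0.38, -0.59, -0.42 and -0.40). That call was lost without 1 library in male WT (DMSO 1 or myelin 3), male KO (DMSO 3 or myelin 1) and female KO (DMSO 1 or myelin 2), at adjusted p from 0.0503 to 0.139.

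The loading factors went in opposite directions. Cdc6 fell by 1.46 ± 0.26 in male WT, 1.22 ± 0.26 in female WT and 0.87 ± 0.27 in female KO microglia, and was at -0.39 ± 0.27 without passing in male KO. The female KO call was lost without myelin library 2 of that culture (-0.64, adjusted p = 0.0736). Cdt1 rose, from 45.1, 49.5 and 49 to 54.7, 55.5 and 58.5 CPM in male WT libraries and from 48.3, 47.7 and 43.9 to 54.5, 56.1 and 54 in female WT libraries. In KO libraries Cdt1 went from 48.1, 46.7 and 45.7 to 54.9, 52.8 and 53.4 CPM in males and from 41.8, 44.2 and 41.4 to 47.9, 52.5 and 55.5 in females. Myelin libraries lay above DMSO libraries in all 4 cultures. The rise was 0.23 ± 0.05, 0.24 ± 0.05, 0.20 ± 0.05 and 0.29 ± 0.05 in WT males, WT females, KO males and KO females (adjusted p = 0.000380, 0.000305, 0.00280 and 1.63e-05, edgeR).

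Pcna, the sliding clamp of the polymerases, had 226, 229 and 219 CPM with DMSO and 178, 188 and 182 with myelin in male WT libraries, and 239, 255 and 259 CPM with DMSO and 176, 189 and 195 CPM with myelin in male KO libraries. Female libraries held 234, 238 and 243 CPM with DMSO and 175, 180 and 178 CPM with myelin (WT), and 233, 225 and 232 CPM with DMSO and 174, 188 and 184 CPM with myelin (KO). All DMSO libraries lay above all myelin libraries of the same sex. With DMSO the male KO libraries lay above the male WT libraries, and the female KO libraries just below the female WT libraries. Pcna fell by 0.30, 0.42, 0.43 and 0.34 in WT males, WT females, KO males and KO females (SE 0.04 in each). Rrm2, the regulated subunit of ribonucleotide reductase, fell by 1.23, 1.59, 0.86 and 0.93, more than its partner Rrm1 (-0.67, -0.55, -0.40 and -0.60). The difference between the 2 genes was not tested. Tyms, which makes thymidylate, was called lower in female WT microglia alone (-0.40 ± 0.15, adjusted p = 0.0290), and lost that call with DESeq2 (0.0526) or without female WT DMSO library 3 or myelin library 1 (0.177 and 0.122). In male WT microglia Tyms was at -0.35 ± 0.15 and did not pass in the main fit. It passed there with total count scaling (adjusted p = 0.0183, edgeR) and with a mean of at least 1 CPM (0.0438). It also passed in the fit of only the groups compared (0.0433) and with the replicate block within sex and genotype (0.0404).

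Uhrf1, which binds hemimethylated DNA behind the fork and recruits the maintenance DNA methyltransferase (chromosome 17, 56303321 to 56323486, GRCm38), had 19.7, 20.3 and 19.9 CPM with DMSO and 8.45, 8.5 and 6.15 with myelin in male WT libraries, and 12.4, 10.5 and 12.5 CPM with DMSO and 8.88, 7.67 and 8.89 CPM with myelin in male KO libraries. In females it had 17.5, 18.8 and 19.1 CPM with DMSO and 7.68, 7.12 and 5.58 CPM with myelin (WT), and 11, 12.3 and 9.6 CPM with DMSO and 5.29, 5 and 7.27 CPM with myelin (KO). With myelin the genotypes overlapped in both sexes, and with DMSO they did not. Uhrf1 fell by 1.37 ± 0.12 in male WT, 1.44 ± 0.12 in female WT, 0.48 ± 0.13 in male KO and 0.91 ± 0.13 in female KO microglia.

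The genes of S phase entry were mixed. Ccne1, the cyclin E1 gene, had 8.12, 7.12 and 6.93 CPM with DMSO and 7.8, 8.06 and 6.84 with myelin in male WT libraries, and 6.07, 5.88 and 6.27 CPM with DMSO and 8.74, 7.32 and 9.34 CPM with myelin in male KO libraries. Female libraries held 6.35, 8.79 and 6.64 CPM with DMSO and 7.79, 8.19 and 7.53 CPM with myelin (WT), and 4.58, 5.72 and 6.2 CPM with DMSO and 7.1, 6.93 and 5.83 CPM with myelin (KO). With DMSO the KO libraries lay below the WT libraries in both sexes, and with myelin the male KO libraries lay above their DMSO libraries. Ccne1 rose with myelin in male KO microglia (0.48 ± 0.14, adjusted p = 0.00398, edgeR) and did not pass in male WT (0.03 ± 0.14), female WT (0.11 ± 0.14) or female KO (0.26 ± 0.14). Ccne2, the cyclin E2 gene, had 3.83, 3.34 and 4.36 CPM with DMSO and 2.79, 2.75 and 1.69 with myelin in male WT, 1.98, 2.85 and 2.5 CPM with DMSO and 2.67, 1.9 and 1.38 CPM with myelin in male KO, 2.93, 4.22 and 2.74 CPM with DMSO and 1.56, 1.31 and 0.941 CPM with myelin in female WT, and 3.05, 1.86 and 2.56 CPM with DMSO and 1.75, 1.65 and 1.32 CPM with myelin in female KO libraries. DMSO and myelin libraries overlapped in male KO microglia and not in the other 3 cultures. It fell in male WT (-0.67), female WT (-1.36) and female KO microglia (-0.65). The male WT call was lost in 3 of 6 fits without 1 library (DMSO 1 or 3, or myelin 3, adjusted p from 0.0518 to 0.172). The female KO call was lost in 5 of 6 (DMSO 1 or 3, or any myelin library, 0.0530 to 0.209). E2f1, an activator of S phase genes, had 34.9, 30.3 and 31.4 CPM with DMSO and 27.1, 24.3 and 22.8 with myelin in male WT, 29.4, 32.7 and 31.7 CPM with DMSO and 26.4, 26.3 and 26.9 CPM with myelin in male KO, 30.6, 34.1 and 33.6 CPM with DMSO and 26.6, 25.7 and 25.2 CPM with myelin in female WT, and 29.7, 29.8 and 31.7 CPM with DMSO and 22.4, 23.4 and 27.2 CPM with myelin in female KO libraries. Every DMSO library lay above every myelin library of its sex, and the genotypes overlapped. E2f1 fell by 0.38, 0.34, 0.23 and 0.32 in WT males, WT females, KO males and KO females (SE 0.07), with the male KO call lost without DMSO library 2 of that culture (-0.18, adjusted p = 0.0790). E2f8, a repressor of E2F targets, was called in male WT alone (-0.36 ± 0.14), and that call was lost without DMSO library 2 or 3 or myelin library 1 or 3 (0.0598 to 0.184). It was also lost with DESeq2 (0.0503). With total count scaling E2f8 passed in female WT (adjusted p = 0.0356, edgeR) and male KO microglia (0.0425).

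**Figure D2:**
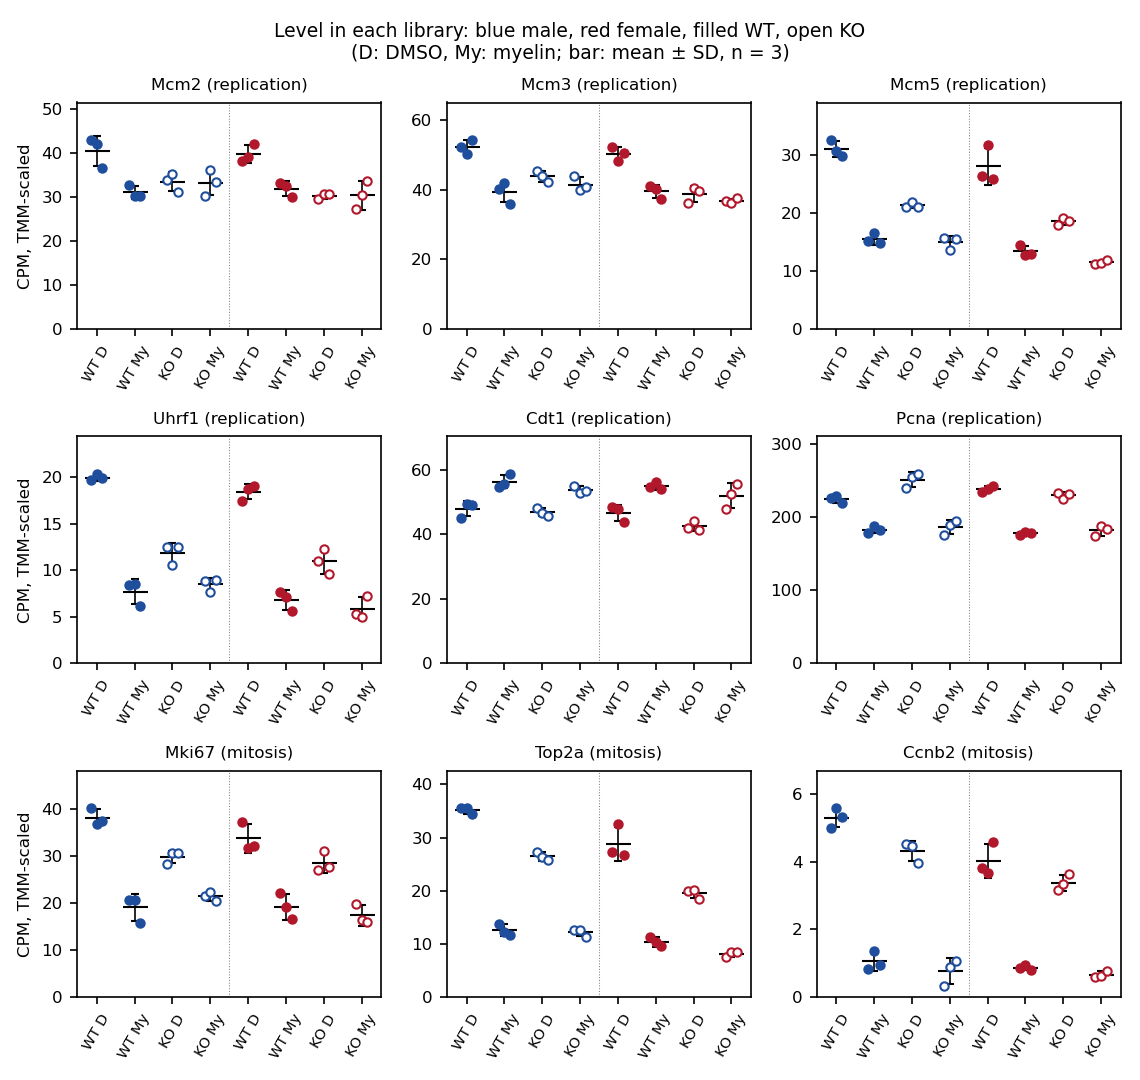
Level of 9 members in CPM (y axis, from 0) in each of the 24 libraries (points), with the mean and SD of each group of 3. For Mcm2 and Mcm3 the WT libraries with DMSO stand above the other groups, Cdt1 is higher with myelin in each culture, and Mki67, Top2a and Ccnb2 are lower with myelin throughout.

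Without Tlr7, many cell cycle genes were lower with DMSO in both sexes, and few were called with myelin. With DMSO, 10 of 18 replication members were called lower in male KO than in male WT microglia and 1 higher, and 10 were called lower in females and 0 higher. The background of calls was 9.32% lower and 11.6% higher in males, and 6.48% lower and 5.42% higher in females. Of the 25 mitosis members, 11 were called lower in males and 7 in females, and 0 were called higher in either sex by edgeR. The median log2 difference of the replication members was -0.29 in males and -0.40 in females, and that of the mitosis members -0.39 and -0.44. With myelin, 0 replication members were called in males (0 at an unadjusted p under 0.05, and 0 with DESeq2) and 3 in females, all lower (Mcm4, Mcm7 and Rrm1). In mitosis, Cdc20 was called in males, and Top2a and Kif23 in females. The background with myelin was 10.6% lower and 10.1% higher in males, and 3.48% lower and 3.80% higher in females. The male members fell short of it, while the 3 of 18 replication members called lower in females lay above it. The medians with myelin were 0.01 and -0.13 for the replication members and -0.04 and -0.13 for the mitosis members. The DMSO and myelin comparisons use different libraries, and both share theirs with the myelin responses above.

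Called lower in KO with DMSO in both sexes were Mcm2 to Mcm7, Rrm1, Rrm2 and Uhrf1 among replication members, and Bub1b, Ccna2, Cdc20 and Top2a among mitosis members. Of these 9 replication members Uhrf1 differed most, with -0.76 ± 0.11 in males and -0.75 ± 0.11 in females (adjusted p = 5.98e-07 and 1.83e-06, edgeR). Mcm5 was lower by 0.54 ± 0.08 in males and 0.59 ± 0.08 in females, and Mcm7 by 0.50 and 0.59. Mcm2 was lower by 0.27 ± 0.07 in males and 0.40 ± 0.07 in females. Top2a was lower by 0.41 ± 0.08 in males and 0.56 ± 0.08 in females, and Cdc20, an activator of the anaphase-promoting complex, by 0.87 ± 0.18 and 0.60 ± 0.18. Mki67 was called lower in males (-0.36 ± 0.09, adjusted p = 0.00371, edgeR) and did not pass in females (-0.23 ± 0.09, 0.0908). In females it passed without a filter on low counts (0.0316) and with the replicate block across all groups (0.0347). Cdc6, called in males alone, was at -0.91 ± 0.25 there. Cenpf in males (-1.02 ± 0.28) and Kif20a in females (-0.75 ± 0.16) differed most among the mitosis members. Members that did not pass in either sex included Cdk1 (-0.15 and -0.20), E2f1 (-0.04 and -0.11), Cdt1 (-0.03 and -0.13), Ccnb1 (-0.30 and -0.55), Ccne1 (-0.28 and -0.40) and Ccne2 (-0.65 and -0.41). Of these, Ccne2 passed in males under 5 alternative settings (adjusted p from 0.0208 to 0.0497, edgeR), Ccnb1 in females without a filter on low counts (0.0109) and in the fit of only the groups compared (0.0167), and Ccne1 in both sexes with total count scaling (0.0419 in males and 0.0425 in females). With total count scaling Cdk1 also passed in males (-0.25, 0.0494).

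Several of these calls rest on single libraries. In males 6 of the 22 members called with DMSO lost the call without 1 or more of the 6 libraries, among them Rrm2 in 5 of 6 fits (adjusted p from 0.0521 to 0.106). In females 7 of 17 did, among them Rrm1, Gins2, Ccna2 and Cdc20 in 4 of 6 fits each. The count of mitosis members called was 7 in males without WT library 3 or KO library 1, and 3 in females without KO library 2. Leaving out both female KO libraries numbered 1 gave 10 replication and 5 mitosis members called with DMSO in females. The summed level of 10 border macrophage markers was lower in KO (1095 to 1314 CPM) than in WT libraries (1456 to 1836 CPM). With DMSO the mean of 6 of these 10 markers was lower and that of 4 higher in male KO than in male WT microglia, and 7 were lower and 3 higher in females. With myelin 4 were lower and 6 higher in males, and 5 and 5 in females. Among these markers Pf4 had the highest level with DMSO, a mean of 1006 CPM in male WT and 538 CPM in male KO libraries with DMSO, while Ms4a7 went from 61.5 to 86.9 CPM and Mrc1 with myelin had 323 CPM in WT males and 325 CPM in KO males. The choroid plexus markers named above were lower in male KO libraries. Their part in the differences between genotypes was not tested.

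**Figure D3:**
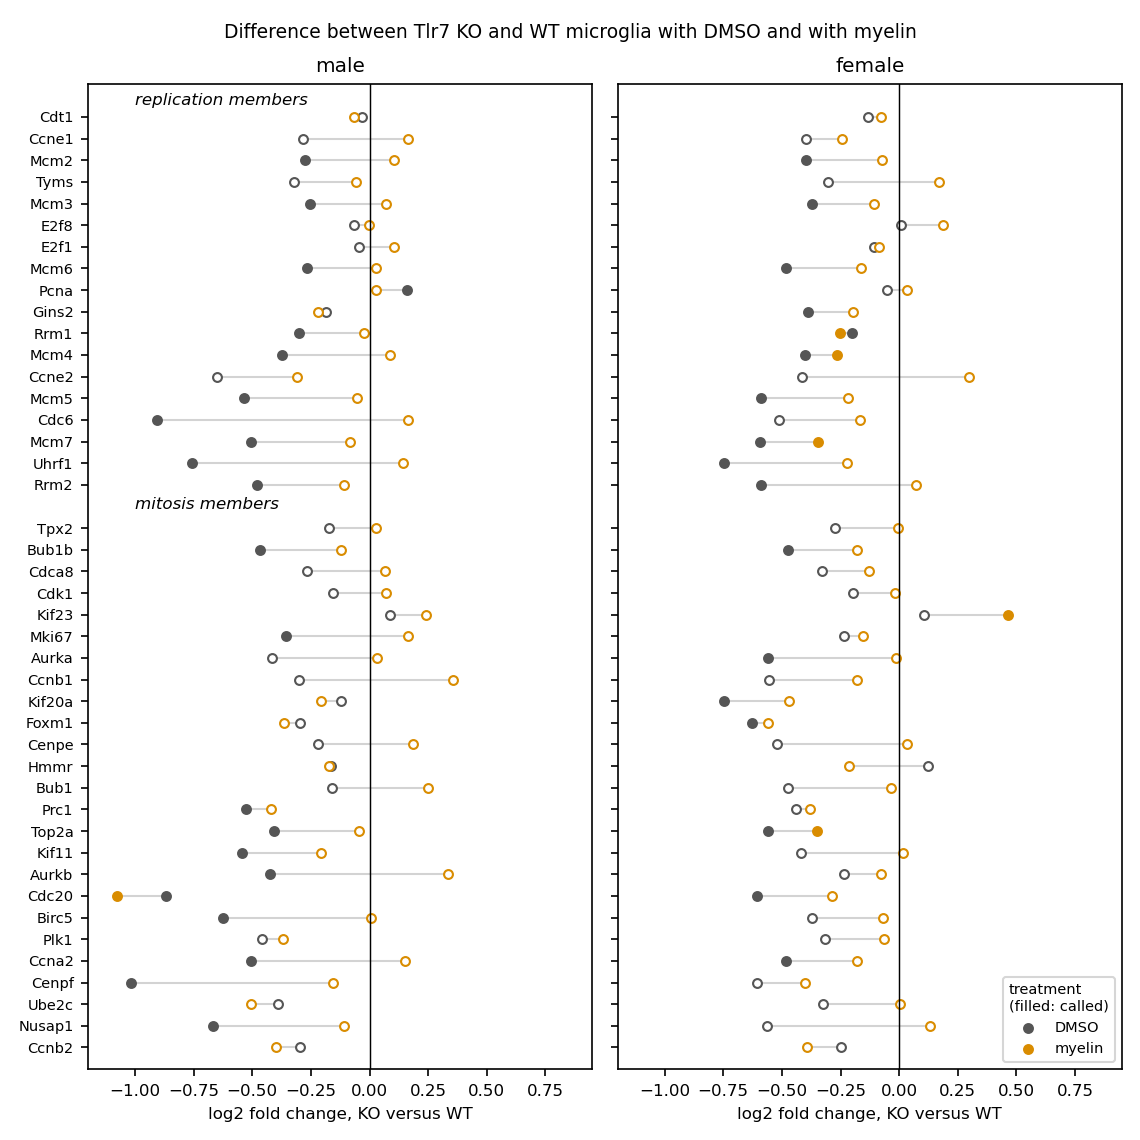
Log2 difference between KO and WT microglia (x axis) for each member (y axis) with DMSO (grey) and with myelin (orange), males left and females right, filled where called by edgeR. Most grey points lie left of 0, with medians from -0.29 to -0.44, and the orange points lie nearer 0, with medians from -0.13 to 0.01.

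With myelin, Cdc20 was lower in male KO than male WT microglia by 1.08 ± 0.23 (adjusted p = 0.000242, edgeR), a call kept without any 1 of the 6 libraries. In females all 5 calls were lost without 1 or more libraries. Mcm4 (-0.27 ± 0.09, adjusted p = 0.0424) was lost without WT library 2 or 3 or KO library 1 or 2 (0.118 to 0.297). Mcm7 (-0.35 ± 0.11, 0.0310) was lost without WT library 2 or KO library 2 or 3 (0.0562 to 0.228), and Rrm1 (-0.25 ± 0.07, 0.0187) without WT library 2 or KO library 3 (0.155 and 0.172). Top2a (-0.35 ± 0.10, 0.0208) was lost without WT library 1 or 2 or KO library 1 (0.0553 to 0.171). Kif23, a kinesin of cell division, was the one member called higher in KO (0.46 ± 0.12, 0.0100), and lost the call without WT library 3 or KO library 3 (0.0716 and 0.0829). DESeq2 called 1 of the 18 replication members in this comparison, and 2 of the 25 mitosis members.

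The interaction of genotype and myelin, which is the response to myelin in KO minus that in WT microglia, tests whether the smaller fall in KO exceeds the spread between libraries. In males 5 replication members had a higher response in KO (Mcm2, Mcm3, Mcm4, Mcm5 and Uhrf1), as did 1 mitosis member, Mki67, against a background of 0.788% of all tested genes. DESeq2 called 3 replication members and 1 mitosis member in males, and gave no adjusted p to 11 and 24 of them. In females 0 members were called by edgeR (background 0.919% in either direction), with 7 replication and 2 mitosis members at an unadjusted p under 0.05, as were 9.84% of all tested genes. DESeq2 also called 0 there, but gave no adjusted p to 11 replication and 25 mitosis members, which its filter on mean counts left out. Averaged over both sexes, 7 replication members had a higher response in KO, Mcm2 to Mcm7 and Uhrf1, against a background of 1.66%. Of the mitosis members 0 were called there by edgeR, 11 had an unadjusted p under 0.05 (14.9% of all tested genes did), and DESeq2 called 1, Mki67 (0.31, adjusted p = 0.0421), while 18 had no adjusted p.

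The estimates themselves were of like size in both sets. The median of the mean interaction was 0.30 over the 18 replication members and 0.28 over the 25 mitosis members. It was positive in 17 of 18 replication members and 22 of 25 mitosis members. These members were measured in the same libraries, so their signs are not independent of each other. Over all tested genes the median of the mean interaction was -0.004. The median SE was 0.09 for the replication members, whose median level was 17.9 CPM, and 0.19 for the mitosis members, whose median level was 4.44 CPM. A difference between the 2 sets in this interaction was not tested, and the counts of calls do not show one. All these values follow from the same libraries as the responses and genotype differences above, and are not independent of them.

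Uhrf1 had the largest called interaction, 0.90 ± 0.18 in males (adjusted p = 0.000665, edgeR), 0.52 ± 0.18 in females (0.222) and 0.71 ± 0.13 over both (9.79e-05). Mcm5 had 0.48 ± 0.12 in males (0.00993), 0.37 ± 0.12 in females (0.168) and 0.43 ± 0.08 over both (0.000569). For Mcm4 the interaction was 0.46 ± 0.11 in males (0.00986) and 0.13 ± 0.11 in females (0.776). For Mcm2 it was 0.38 ± 0.10 in males (0.0267) and 0.32 ± 0.10 in females (0.138), and for Mcm3 0.33 ± 0.08 (0.0179) and 0.27 ± 0.08 (0.138). Mcm6 came nearest to a call in females (0.32 ± 0.09, 0.0626), with 0.29 ± 0.09 in males (0.0574), where it passed under 7 alternative settings (adjusted p from 0.0119 to 0.0478, DESeq2 among them at 0.0330). Over both sexes the values of Mcm2, Mcm3, Mcm4, Mcm6 and Mcm7 were 0.35, 0.30, 0.30, 0.31 and 0.33, with adjusted p from 0.000669 to 0.0337. The members of the replication set with an interaction near 0 over both sexes were Pcna (-0.02 ± 0.04), Cdt1 (0.01 ± 0.05), Gins2 (0.08 ± 0.13) and E2f1 (0.09 ± 0.07). Cdc6 had a mean interaction as large as that of Uhrf1 but with a wider error (0.71 ± 0.27, adjusted p = 0.144), and Ccne1 (0.30 ± 0.14) and Ccne2 (0.53 ± 0.26) did not pass.

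Mki67 in males was at 0.52 ± 0.14 (adjusted p = 0.0265, edgeR) and in females at 0.08 ± 0.14 (0.917). The male call was lost without WT DMSO library 1, WT myelin library 3, KO DMSO library 1 or KO myelin library 2 (adjusted p from 0.0561 to 0.1). The male call of Mcm2 was lost without WT DMSO library 1 or 2, WT myelin library 3, KO DMSO library 3, or KO myelin library 2 or 3 (0.0624 to 0.132), and that of Mcm3 without WT DMSO library 3 or WT myelin library 3 (0.0665 and 0.115). Over both sexes Mcm4 lost its call without female WT myelin library 1 (0.26, adjusted p = 0.0644), and Mcm7 lost it in 12 of 24 fits without 1 library (0.0517 to 0.0911). The other 5 calls over both sexes, those of Mcm2, Mcm3, Mcm5, Mcm6 and Uhrf1, held in all 24. The remaining mitosis members with values printed above, Top2a (0.28 ± 0.09, adjusted p = 0.0547), Cdk1 (0.20 ± 0.10, 0.339) and Ccnb1 (0.52 ± 0.25, 0.346), did not pass over both sexes. Top2a passed without both female KO libraries numbered 1 (0.33, adjusted p = 0.0296), as did Bub1b (0.40, 0.0385), and the 7 replication calls remained 7 in number.

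**Figure D4:**
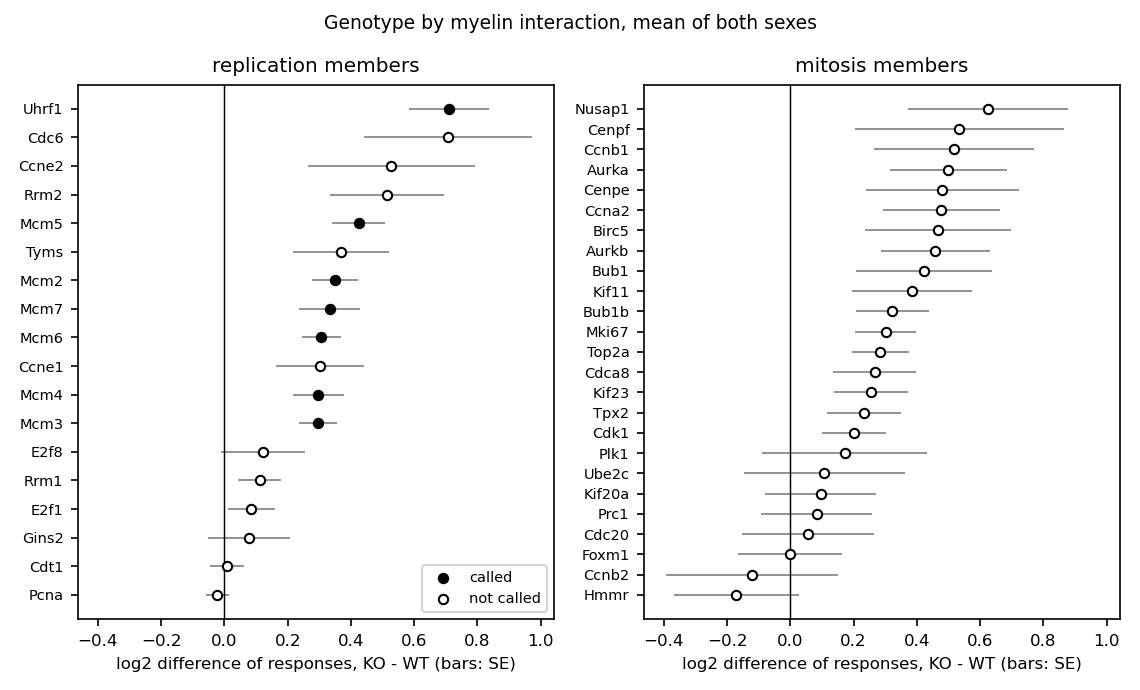
Response to myelin in KO minus that in WT microglia, mean of both sexes (x axis, log2, bars SE), for the replication members (left) and mitosis members (right), filled where called by edgeR. The 7 filled points are Mcm2 to Mcm7 and Uhrf1, and the mitosis members reach similar values with wider bars.

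Few members differed between the sexes. The 3-way interaction of genotype, myelin and sex called 0 of the 43 members by edgeR (0.0760% of all genes in either direction), with 3 replication members and 1 mitosis member at an unadjusted p under 0.05 (7.25% of all tested genes were) and 0 calls by DESeq2, which gave no adjusted p to 17 and 25 of them. The difference between the male and female interactions was -0.38 ± 0.25 for Uhrf1, -0.33 ± 0.16 for Mcm4 and -0.44 ± 0.19 for Mki67, and these differences did not pass the test. With DMSO the genotype difference depended on sex for Pcna alone among the members (-0.21 ± 0.05, female minus male, adjusted p = 0.00412, edgeR, background 7.53%). Pcna was higher in KO than WT in males (0.16 ± 0.04, 0.000671) and at -0.05 ± 0.04 in females (0.426). With total count scaling this sex difference was -0.13 (adjusted p = 0.103) and the male difference 0.07 (0.155). With myelin the genotype difference depended on sex for 0 members by edgeR (background 6.51%), with 5 replication and 3 mitosis members at an unadjusted p under 0.05 (20.3% of all tested genes were) and 0 by DESeq2. Between WT males and females with DMSO, Top2a was lower in females (-0.29 ± 0.07, adjusted p = 0.0160, edgeR, background 3.70%). That call was lost without male DMSO library 1 or 2 or female DMSO library 1 or 3 (0.0675 to 0.163).

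Among other genes of the same processes, more were called lower than higher with myelin. Of 46 other replication and S phase genes, 25, 26, 16 and 17 were called lower and 2, 2, 4 and 3 higher in WT males, WT females, KO males and KO females. Clspn, a checkpoint adaptor at the fork, fell by 1.64 ± 0.23 in male WT and 1.82 ± 0.24 in female WT, and Dnmt1, the maintenance DNA methyltransferase that Uhrf1 recruits, rose by 0.25 and 0.24. Of 56 other mitosis genes tested, 50, 49, 39 and 43 were called lower and 1 higher in each culture, the tubulin gene Tubb4b (0.22, 0.24, 0.24 and 0.17). With myelin, 19.4% to 21.1% of all tested genes were called lower and 18% to 20.8% higher in the 4 cultures. In both lists the share called lower lay above this background, and the share called higher lay below it. In KO against WT with DMSO, 9 of the 46 other replication genes were lower in males and 13 in females, and 9 and 5 of the 56 other mitosis genes. The background called lower was 9.32% in males and 6.48% in females, and the 5 of 56 in females were near it. For the interaction over both sexes 4 of the 46 and 1 of the 56 were called, all higher, against a background of 1.66% called higher. The 1 of 56 was near that background. Among the called genes were Hells, a chromatin remodeller (0.75 ± 0.14, adjusted p = 0.000334, edgeR), Clspn (0.95 ± 0.23, 0.00785) and Racgap1, a factor of cell division (0.46 ± 0.10, 0.00228).

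Upstream regulators were mixed. Of 19 tested G1 cyclins, kinases and E2F factors, 13, 13, 9 and 11 were called lower with myelin and 1 higher in each culture, Cdk4, the G1 kinase (0.31, 0.37, 0.37 and 0.46). Against the background with myelin given above, the share called lower was larger and the share called higher smaller. Ccnd1, which encodes the cyclin D1 partner of Cdk4, fell by 0.33 ± 0.04 in male WT, 0.30 ± 0.04 in female WT, 0.11 ± 0.04 in male KO (adjusted p = 0.0257, edgeR) and 0.15 ± 0.04 in female KO microglia. Its level with DMSO averaged 160 CPM in male WT, 123 in male KO, 145 in female WT and 99.3 in female KO microglia. It was lower in KO by 0.38 and 0.55 with DMSO and by 0.16 and 0.40 with myelin, in males and females, and its interaction over both sexes was 0.18 ± 0.04 (adjusted p = 0.00413). Ccnd2, another D cyclin gene, was lower in male KO microglia by 1.35 ± 0.11 with DMSO and 1.38 ± 0.13 with myelin. E2f2, an activator E2F gene, had an interaction of 0.72 ± 0.16 over both sexes (0.00222).

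Of 29 cell cycle inhibitors and quiescence genes, 15, 16, 15 and 15 were called lower with myelin and 4, 4, 7 and 6 higher in WT males, WT females, KO males and KO females. Over all tested genes, 19.4% to 21.1% were called lower and 18% to 20.8% higher in these cultures. The share of the 29 genes called lower lay above that background, and the share called higher was near it. Cdkn1a, which encodes the inhibitor p21, rose by 0.19, 0.18, 0.30 and 0.35 in WT males, WT females, KO males and KO females (SE 0.03). Its mean went from 389 to 443 CPM in male WT microglia. Gadd45a, a stress-induced growth arrest gene, rose by 0.80 in male WT and 0.59 in female WT, and Sesn1, a stress-induced inhibitor of growth signalling, fell by 1.52, 1.58, 1.08 and 1.30. Csf1r, the receptor gene on which microglial survival and division depend, fell with myelin by 0.65, 0.67, 0.68 and 0.77 (SE 0.03). Its mean went from 1540 to 979 CPM in male WT microglia. With DMSO it was at -0.20 ± 0.03 in male KO against WT (adjusted p = 1.09e-08) and 0.00 ± 0.03 in female KO against WT (0.979).

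The 2 hippocampal experiments of the series gave a level for the same genes in whole tissue, in tables that were made separately, so the values stand side by side without a test. The first held 28 libraries of WT mice given Saline or Gardiquimod, 7 of each sex and treatment, at an age of 12.12 months in males and 9.60 months in females. The second held 17 libraries of mice with the genotype PSUK+, labelled Ctrl (3 female and 3 male) or Inhibitor (5 female and 6 male), at 5.50 to 6.85 months by labels of which 1 gives no unit. The ranges below pool sexes and treatments. As a sum of CPM scaled by total counts alone, the 18 replication members had 427 to 695 in the 24 microglial libraries, 122 to 165 in the first hippocampal experiment and 117 to 151 in the second. The 25 mitosis members had 96.7 to 287 in microglia, 17.8 to 27.7 in the first and 22.7 to 35.4 in the second hippocampal experiment. The lowest microglial sums, those with myelin, were still above the highest hippocampal sums.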

How the data were processed

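RNA of 24 microglial libraries, labelled nuclear RNA, was sequenced from the 3′ end with QuantSeq 3′ FWD, per the labels' protocols. The authors deposited raw counts per gene. The submitters' processing notes name GRCm38, mm10 and DESeq2 1.38.3, and name no aligner or counter. Values at the 3′ end of transcripts do not measure whole genes, and levels of different genes are not compared per length.

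Genes with low counts were removed with filterByExpr (14468 of 54532 kept), libraries were TMM-scaled, and edgeR 4.0.16 (R 4.3.3) fitted a quasi-likelihood model with 1 term per group to all 24 libraries. Contrasts were tested two-sided and p-values adjusted by Benjamini-Hochberg over all tested genes, with calls at 0.05. The residual degrees of freedom were 16. The scripts were tested on simulated counts. Alternatives were RLE size factors, total count scaling, no filter, a mean of at least 1 CPM, DESeq2 1.42.0, fits of only the groups compared, a replicate block, and each library left out in turn. Leaving out both female KO libraries numbered 1 was chosen after seeing the data. After group means were removed, same-numbered libraries of a culture correlated above 0.1 in 3 of 12 pairs, and differently numbered ones in 1 of 24. The highest correlations were 0.442 and 0.277. Numbers were not used as pairs in the main fit, and a replicate block was an alternative.

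The 43 members, the other gene lists and the tests were chosen with earlier results of these data known. All members may be named. Of other lists, up to 2 called genes per direction and comparison with the largest change are named, plus Tlr7, Cdkn1a, Ccnd1 and Csf1r. Every library's value is printed for Mki67, Top2a, Cdk1, Ccnb1, Mcm2, Mcm5, Pcna, Ccne1, Ccne2 and E2f1, and for the 3 members with the smallest adjusted p of each interaction.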

Additional observations from a re-analysis of the deposited data

Results flagged for a closer look

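The genotype by myelin interaction passed edgeR's test for 6 members in males. The response to myelin was higher in KO than in WT microglia by 0.38 ± 0.10 for Mcm2, 0.33 ± 0.08 for Mcm3, 0.46 ± 0.11 for Mcm4, 0.48 ± 0.12 for Mcm5, 0.90 ± 0.18 for Uhrf1 and 0.52 ± 0.14 for Mki67 (log2, SE, adjusted p from 0.000665 to 0.0267). Over both sexes it passed for 7 members, at 0.35 ± 0.07 for Mcm2, 0.30 ± 0.06 for Mcm3, 0.30 ± 0.08 for Mcm4, 0.43 ± 0.08 for Mcm5, 0.31 ± 0.06 for Mcm6, 0.33 ± 0.10 for Mcm7 and 0.71 ± 0.13 for Uhrf1 (adjusted p from 9.79e-05 to 0.0337, edgeR). The genotype difference with DMSO depended on sex for Pcna alone among the 43 members, at -0.21 ± 0.05 in females relative to males (adjusted p = 0.00412, edgeR). Of all tested genes 7.53% were called in that comparison. With total count scaling the Pcna value was -0.13 and did not pass (0.103). The results flagged here are tested differences between the effects of 2 groups. The first 2 sets share their male libraries. Of all tested genes 0.788% were called higher in the male interaction and 1.66% in that over both sexes. With 1 library left out, 3 of the 6 male calls were lost in some fits (Mcm2, Mcm3 and Mki67). Over both sexes 2 of the 7 were (Mcm4 and Mcm7).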

How the results depend on the processing

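No call reversed in any alternative. Of 11519 values of single genes under an alternative, 452 had the other sign from the reported value, and 0 of these were called in either fit (edgeR or DESeq2). Of 6450 values with 1 library left out, 6289 kept their side of the threshold, 121 lost a call and 40 gained one. With DESeq2 the same counts were 500, 9 and 2 of 511, with total count scaling 627, 2 and 16 of 645, and in fits of only the groups compared 628, 8 and 9 of 645. Mitosis members called in the interaction over both sexes numbered 1 with total count scaling, without a filter, with a mean of at least 1 CPM and with DESeq2, and 2 with either replicate block or without both female KO libraries numbered 1. With a replicate block 1 replication member was called in the female interaction, Mcm6 (0.32), and the pairing is by number only. Replication members that differed between sexes in genotype effect with myelin numbered 1 with RLE size factors or without a filter, and mitosis members 1 without a filter. With DMSO the replication count was 0 with total count scaling. Between WT females and males 1 replication member was called with total count scaling, with a mean of at least 1 CPM, in fits of only the groups compared and with the block across all groups, and 3 mitosis members in fits of only the groups compared. In female KO against WT with myelin 1 replication member was called with DESeq2 or in fits of only the groups compared, and 1 mitosis member in the latter. With each library left out in turn, counts ranged from 3 to 7 (replication) and 0 to 3 (mitosis) in the male interaction, 0 to 1 (replication) in the female one and 0 to 2 (mitosis) over both sexes. They ranged from 7 to 10 (mitosis, male DMSO), 3 to 6 (mitosis, female DMSO), 1 to 3 (mitosis, male myelin), 0 to 3 (replication, female myelin) and 1 to 2 (mitosis, female myelin) for KO against WT. They ranged from 0 to 1 for the genotype by sex effect with myelin (replication) and between WT sexes (mitosis). The cause was not tested. The median SE of the interaction over both sexes was 0.19 for mitosis members and 0.09 for replication members.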
